A study of Mus musculus with 6 samples.

Results

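The mitochondrial ribosomal protein genes are described here in E0771 cells, a mouse breast adenocarcinoma line of the C57BL/6 strain. Their members were all genes of the deposited count table whose symbol begins with Mrpl or Mrps followed by a number, which gave 72 of 10520 genes (0.684%). The cells carried a control construct (shControl, 3 libraries), which the study's reagent list gives as the vector without an insert, or a hairpin that targets lamin A/C (shLmna, 3 libraries), delivered by lentivirus and followed by puromycin selection, so that each group was a selected culture and not a clone. Lamin A and lamin C, both made from Lmna, are proteins of the nuclear lamina. RNA was read by MARS-seq, which primes at the 3′ ends of polyadenylated transcripts and counts molecules by their random tags (UMIs) rather than by reads. By title the knockdown was shRNA4, by genotype shLmna. The labels do not say whether the libraries of a group came from separate cultures, so p-values measure only the spread between these libraries, which may be technical.

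Mitochondria hold their own ribosome, which translates the few proteins encoded by mitochondrial DNA, nearly all of them subunits of the respiratory chain and of ATP synthase. Its rRNA comes from the mitochondrial genome, but every one of its proteins is encoded in the nucleus, made in the cytosol and imported. The large subunit forms peptide bonds and holds the exit tunnel, and the small subunit binds the mRNA and reads its codons. Some of the proteins descend from those of the bacterial ribosome, and others were added in the mitochondrial lineage.

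By subunit, 46 of the 72 genes encode proteins of the large subunit and 25 proteins of the small subunit. The names do not always follow this division, since Mrps18a and Mrps30 were named for the small subunit but encode proteins of the large one. The remaining gene, Mrps36, encodes an adaptor of the ketoglutarate dehydrogenase complex and is no longer counted as a ribosomal protein. Of the 71 others, 44 have a bacterial counterpart and 27 are specific to mitochondria. The genes lie on 17 chromosomes. Mrpl17, Mrpl35, Mrpl41 and Mrps25 were not analysed here.

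The libraries held between 1846208 and 3242051 UMIs, and the ranges of the groups overlapped. Lmna itself stood at 873 ± 62.8 CPM (UMI counts scaled to library size, mean ± SD of 3 libraries) in shControl against 381 ± 6.34 CPM in shLmna, a log2 fold change of -1.20 (SE 0.13, adjusted p = 3.5e-05). Adjusted p-values throughout are Benjamini-Hochberg values from the quasi-likelihood test of edgeR. Of the mammary epithelial markers, Krt8 had between 516 and 814 UMIs and Epcam between 8 and 46 in every library. The others in the table were low, at 27 to 75 UMIs for Erbb2, 5 to 31 for Krt14, 7 to 20 for Krt18 and 4 to 10 for Krt7. Cdh1, Krt19, Krt5, Esr1 and Pgr were not among the genes of the table. Listed markers of leukocytes (1 of 5 in the table) and endothelium (1 of 3) summed to at most 34 UMIs in any library. Those of fibroblasts (3 of 4 in the table) summed to 18.04 to 18.76 CPM in shControl and 24.96 to 30.31 CPM in shLmna, at most 74 UMIs, and their part in the results was not tested. Markers of melanocytes set 1 library of each group apart. Their sum over 6 of 7 listed genes was 1421 UMIs in shControl replicate 3 and 1647 in shLmna replicate 2, against 2 to 15 UMIs in the other 4 libraries. Melanoma cells (B16F10) were studied beside E0771, and results are given below also without these libraries. The shControl libraries occupied plate positions 13 to 15 and the shLmna libraries positions 16 to 18, and the effect of position cannot be told apart from that of the knockdown.

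Mitochondrial ribosomal protein transcripts were among the more abundant in these cells. Of the 72 genes, 63 lay above the median gene of the table and 20 within its upper 10%, at a median level of 145.6 CPM against 25.9 CPM for all genes. Each UMI stands for a molecule counted at its 3′ end, so these levels compare molecules and were not divided by transcript length. In all, the 72 genes took between 1.07% and 1.16% of the UMIs of a library. Although the ribosome holds most of its proteins in equal number, the levels of their transcripts spanned a 227-fold range, from 2.30 to 521.8 CPM.

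The highest member was Mrpl52, which encodes a mitochondria-specific protein of the large subunit, at 530 ± 53.9 CPM in shControl and 514 ± 45.5 CPM in shLmna (SD, n = 3 each). It was followed by Mrpl12, whose protein forms the stalk that contacts translation factors, at 439 CPM over all libraries, by Mrpl20, an rRNA-binding protein of the large subunit, at 438 CPM, and by Mrps24, the counterpart of bacterial S3 at the mRNA entry, at 434 CPM. Mrps26, a mitochondria-specific protein of the small subunit, came next at 372 CPM. The means of Mrpl12, Mrpl20 and Mrps24 lay within the SD of their replicates and were not told apart. Levels then fell gradually to 26.02 CPM for Mrpl50, and 9 genes stood below a gap at 11.6 CPM or less.

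These 9 genes had between 2 and 35 UMIs in any library. Of them, Mrps33, Mrpl15 and Mrpl1, the counterpart of the bacterial L1 protein that guides spent tRNA out of the ribosome, were tested at 11.6, 5.72 and 4.65 CPM. The other 6, Mrpl11, Mrpl19, Mrpl23, Mrps14, Mrps18b and Mrps36, had no more than 15 UMIs in any library and did not pass the filter on low counts, which kept 8969 genes of the table and 66 of the 72 members. Counts depend on the transcript end used in counting. RefSeq and the GENCODE annotation placed the gene's end over 1000 bases apart for 15 members, and 0 of the 9 lowest genes were among them. Yet GENCODE lists several coding 3′ ends for most of the 9. These are 4 for Mrpl11 and Mrps18b, 3 for Mrpl1, Mrpl15 and Mrps33, and 2 for Mrps14 and Mrps36. Mrpl19 and Mrpl23 have 1, and other members also have several, such as 10 for Mrps17. The part of the counted end in the low levels was not tested.

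**Figure D1:**
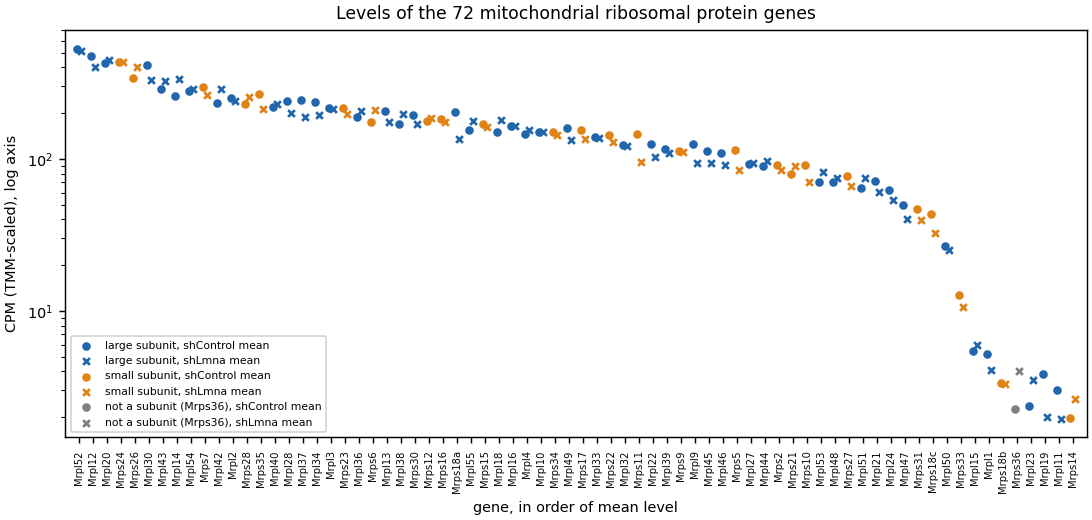
Mean TMM-scaled CPM of each of the 72 genes on a log axis, in order of level, with circles for shControl and crosses for shLmna (n = 3 libraries each) and colours for the subunits. The 2 means of a gene lie close together along most of the order, while the levels of different genes span a 227-fold range with a step below Mrpl50.

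In lamin A/C knockdown cells most of these genes stayed close to their level in shControl cells. Of the 66 tested members, 2 were lower in shLmna and 0 were higher at an adjusted p below 0.05 (edgeR's quasi-likelihood test), or 3.03% of the members, where 13.7% of all tested genes were called. Split by direction, 5.78% of all tested genes were lower and 7.96% higher. DESeq2 and limma-voom also called 2 members lower and 0 higher. By the study's criteria, which ask in addition for a change of more than 2-fold, 0 members were called by any of these tools against 5.71% of all tested genes by edgeR. In bulk RNA, a change in the RNA content per cell and a change in which cells were present cannot be told apart.

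The confidence intervals bound what these data could hide only as far as the spread between these libraries, which may be technical, allows. Each interval covers a single gene, and the fit includes the 2 libraries with melanocytic markers. The 95% interval of the log2 fold change lay within ±1, a change of 2-fold, for 65 of the 66 members, the exception being the scarce Mrpl1 (-1.16 to 0.57), and within a 1.5-fold change for 39. The median standard error of a member was 0.15, against 0.21 for all tested genes and 0.18 for genes with a mean count of at least 50, the latter being nearer in depth to the members. Fold changes of the members ran from -0.61 to 0.38 on the log2 scale. Their median was -0.07 with an interquartile range of -0.26 to 0.07, and 41 lay below 0 and 25 above. Over all tested genes the median was 0.00 with an interquartile range of -0.26 to 0.30, 4448 of 8969 lay below 0, and 6.73% exceeded a 2-fold change. Without the 2 libraries with melanocytic markers the members' median was -0.03.

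**Figure D2:**
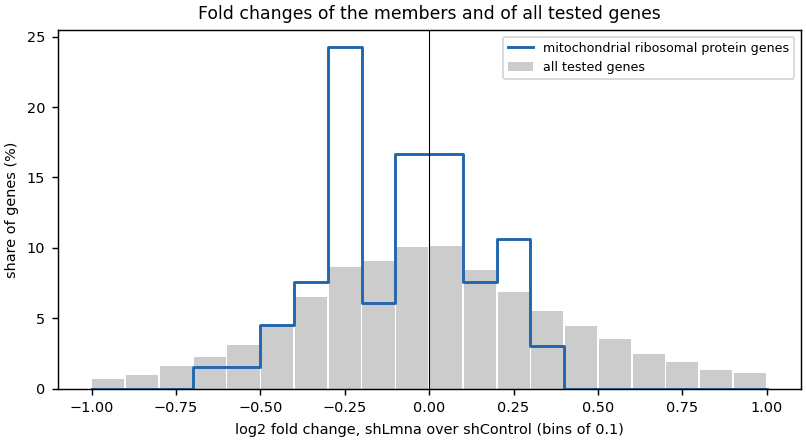
Share of genes (%) in bins of 0.1 of the log2 fold change, shLmna over shControl, for the 66 tested members (blue line) and all 8969 tested genes (grey bars). The members span -0.61 to 0.38, while the grey bars reach both ends of the axis, and 604 genes with a change beyond 1 in either direction are not drawn.

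The lower genes were Mrps18a (ENSMUSG00000023967.9, chr17:46110986-46128910, forward strand, GRCm38) and Mrps11 (ENSMUSG00000030611.10, chr7:78783119-78792989, forward strand). Mrps18a encodes a protein of the large subunit and is 1 of 3 mammalian descendants of the gene for bacterial S18. It had 212, 211 and 190 CPM in shControl replicates 1 to 3 and 154, 130 and 124 CPM in shLmna replicates 1 to 3. Every shLmna library lay below every shControl library. The mean fell from 204 ± 12.0 to 136 ± 15.9 CPM (SD, n = 3 each), a log2 fold change of -0.59 (SE 0.14, adjusted p = 0.0134, edgeR).

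Mrps11 encodes the counterpart of bacterial S11, which sits on the platform of the small subunit beside the mRNA exit. It had 148, 137 and 153 CPM in the shControl libraries and 115, 94.7 and 76.0 CPM in the shLmna libraries, again without overlap. The mean fell from 146 ± 8.16 to 95.4 ± 19.7 CPM (SD, n = 3 each), a log2 fold change of -0.61 (SE 0.16, adjusted p = 0.0230, edgeR). Both calls depended on which libraries were included. Mrps18a had an adjusted p of 0.0696 without shControl replicate 2, 0.0585 without shLmna replicate 2 and 0.0665 without shLmna replicate 3. Mrps11 had 0.0575 without shControl replicate 1, 0.0728 without shControl replicate 2, 0.0706 without shLmna replicate 2 and 0.108 without shLmna replicate 3, while the log2 fold change stayed between -0.70 and -0.52 for Mrps18a and between -0.78 and -0.47 for Mrps11.

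With both melanocytic marker libraries left out, Mrps18a kept a log2 fold change of -0.60 (adjusted p = 0.0236) and Mrps11 had -0.56 (adjusted p = 0.0594), so 1 member was called. Of all tested genes, 13.2% were called in that setting. In these 4 libraries both genes kept their direction. The counted end of Mrps18a overlapped no other exon. That of Mrps11 reached back into its first exon, where GENCODE places an exon of Mrpl46 on the opposite strand. This overlap lies at the start of both genes, whereas Mrpl46 ends at chr7:78775236 and MARS-seq primes at 3′ ends. The sources used here do not state whether counting used the strand, and how many UMIs fell in the overlap was not tested.

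**Figure D3:**
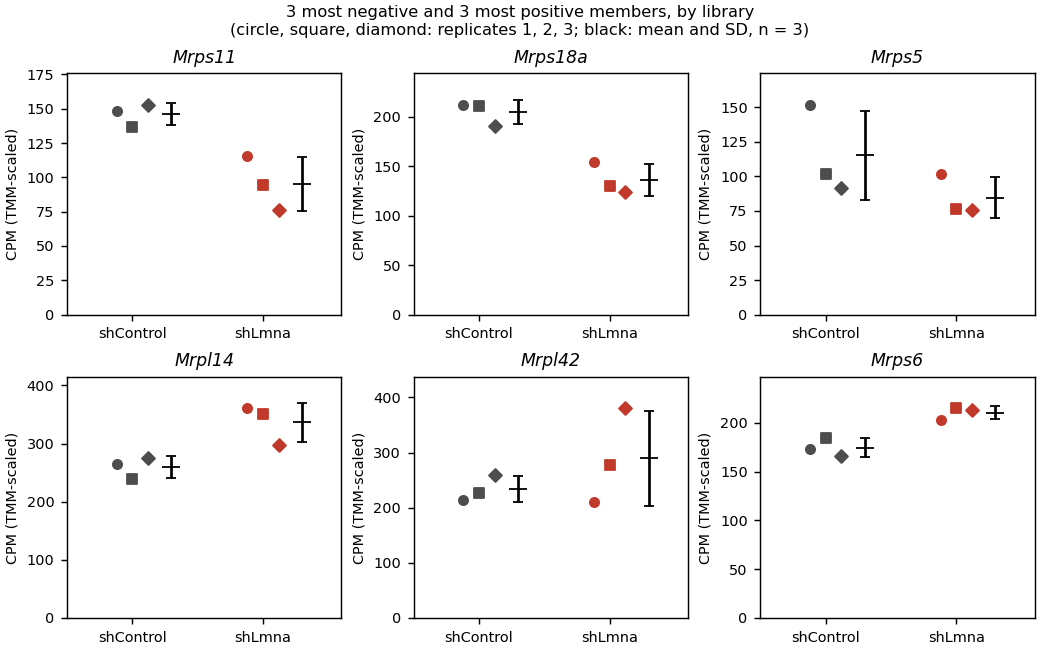
TMM-scaled CPM per library for the 3 members with the most negative (top) and the 3 with the most positive fold change (bottom), with circles, squares and diamonds for replicates 1, 2 and 3 and the mean and SD in black (n = 3). The groups do not overlap for Mrps11, Mrps18a, Mrpl14 and Mrps6, and they overlap for Mrps5 and Mrpl42.

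The start regions of both called genes are shown, since Mrps11 shares its own with another member. Mrps11 and Mrpl46 are transcribed in opposite directions on chromosome 7 from RefSeq starts with only 41 bases between them, at chr7:78783090-78783130 of GRCm38. The 120 bases before the RefSeq start of Mrps18a are given at chr17:46110884-46111003, with letters that match the binding motif of ETS factors in capitals. Sequences are from RefSeq on GRCm38.p6, forward strand, 5′ to 3′.
Mrpl46 to Mrps11: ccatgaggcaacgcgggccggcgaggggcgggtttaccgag
Mrps18a: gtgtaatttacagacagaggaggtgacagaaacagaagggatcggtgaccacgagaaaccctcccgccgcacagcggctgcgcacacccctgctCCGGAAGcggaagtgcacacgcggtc

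Mrpl46, which encodes a mitochondria-specific protein of the large subunit, had 89.4, 131 and 106 CPM in the shControl libraries and 76.5, 92.5 and 106 CPM in the shLmna libraries. The groups overlapped, and its log2 fold change of -0.26 (95% interval -0.63 to 0.12) had an adjusted p of 0.369 by edgeR. The difference between the fold changes of the 2 neighbours was not tested.

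A promoter sequence of 300 bases, 250 before the start and 50 after it, was matched for 63 of the 72 members. Motifs were searched on both strands as exact letters. The ETS letters CCGGAAG were found in 23 of these promoters (36.5%) and in 22.04% of the 8285 promoters matched to genes of the table. The letters AAGATGGCG, which belong to the factor YY1, were found in 7 (11.1%) against 3.98%, and the letters CGCATGCG of NRF1, a factor known for genes of mitochondrial biogenesis, in 6 (9.52%) against 4.60%. At least 1 of the 3 was present in 32 members (50.8%) against 28.3% of all. YY1 letters were present in the windows of both Mrps18a and Mrps11, where they begin 11 bases after and 108 bases before the start, and also in those of Mrpl36, Mrpl37, Mrpl42, Mrps24 and Mrps27, whose genes were not called. A start of another gene on the opposite strand lay within 1000 bases upstream in 24 of the 63 (38.1%), against 20.9% of all promoters.

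The remaining paralogs of Mrps18a did not pass the test. Mrps18c, the small subunit protein closest to bacterial S18, had 38.4, 40.6 and 51.5 CPM in the shControl libraries and 30.4, 29.4 and 37.8 CPM in the shLmna libraries. Each shLmna library lay below each shControl library, and the log2 fold change was -0.42 (SE 0.19, adjusted p = 0.164, edgeR). Mrps18b, a small subunit protein of mitochondria, had 7, 15 and 5 UMIs in shControl and 8, 10 and 6 in shLmna, too few to test under the filter.

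Among the large subunit genes, 1 of 43 tested was called, 24 lay below 0 and 19 above, and the median log2 fold change was -0.04. Of all tested genes, 13.7% were called and 49.6% lay below 0. Unadjusted p-values below 0.05 were found for 6 of the 43, 5 lower and 1 higher, where 28.4% of all tested genes passed. The higher one was Mrpl14, whose protein faces the small subunit and is the docking site of the assembly factor Malsu1. It had 264, 239 and 276 CPM in shControl and 361, 351 and 298 CPM in shLmna. The groups did not overlap, the log2 fold change was 0.38 (SE 0.14) and the adjusted p was 0.0876 by edgeR. It is the only member called higher under any setting tried, with the libraries scaled by their totals alone (adjusted p = 0.0483) and with the melanocytic marker libraries as a block (adjusted p = 0.0373). Its counted end takes in the whole transcript of 645 bases and overlaps an exon of Tmem63b on the opposite strand. The RefSeq starts of Mrpl14 and Tmem63b lie 130 bases apart and point away from each other, which places the overlap at their 5′ sides. How many UMIs fell in the overlap was not tested. Tmem63b had a log2 fold change of -0.24 (adjusted p = 0.484, edgeR).

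The other 4 large subunit genes with an unadjusted p below 0.05 are named after their values were seen. Mrpl9 had 113, 138 and 124 CPM in shControl and 87.7, 100.2 and 95.2 CPM in shLmna, a log2 fold change of -0.41 (SE 0.15, adjusted p = 0.0817, edgeR). Mrpl30, Mrpl34 and Mrpl37 had log2 fold changes of -0.32, -0.29 and -0.36, with adjusted p-values of 0.125, 0.174 and 0.154. Mrpl9, Mrpl30 and Mrpl34 have bacterial counterparts, while Mrpl37 is specific to mitochondria. The groups did not overlap for Mrpl9, Mrpl30 and Mrpl34, and they overlapped for Mrpl37, where the lowest shControl library had 218 CPM and the highest shLmna library 222 CPM.

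Mrpl42, a mitochondria-specific protein of the large subunit, had the second most positive fold change. It had 215, 226 and 260 CPM in shControl and 210, 278 and 380 CPM in shLmna. The groups overlapped, shLmna replicate 3 standing highest, and the log2 fold change was 0.31 (SE 0.19, adjusted p = 0.305, edgeR). Mrpl12 had a log2 fold change of -0.25 (SE 0.15, adjusted p = 0.298) and Mrpl52 one of -0.04 (SE 0.14, adjusted p = 0.876).

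Among the small subunit genes, 1 of 23 tested was called, 17 lay below 0 and 6 above, and the median log2 fold change was -0.13. Of all tested genes, 13.7% were called and 49.6% lay below 0. Besides Mrps11, the unadjusted p was below 0.05 for Mrps5 and Mrps18c, both lower, where 28.4% of all tested genes passed. Mrps5, the counterpart of the bacterial S5 protein that shapes the mRNA entry and the accuracy of decoding, had 152, 102 and 91.8 CPM in shControl and 102, 76.7 and 75.5 CPM in shLmna. The groups overlapped, and the spread among the shControl libraries was the larger one. Its log2 fold change was -0.44 (SE 0.20, adjusted p = 0.153, edgeR), which became -0.20 (adjusted p = 0.572) without shControl replicate 1 and -0.58 (adjusted p = 0.0409) without shControl replicate 3, the only setting that called it.

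Mrps6, whose bacterial counterpart binds S18 on the platform, had the most positive fold change of the small subunit. It had 173, 185 and 166 CPM in shControl and 202, 215 and 213 CPM in shLmna. The groups did not overlap, but the log2 fold change of 0.27 (SE 0.13) had an adjusted p of 0.204 by edgeR. Mrps26 had a log2 fold change of 0.23 (SE 0.14, adjusted p = 0.2996) and Mrps24 one of 0.01 (SE 0.13, adjusted p = 0.985).

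Counted over both subunits, the 3 shLmna libraries lay wholly outside the range of the shControl libraries for 13 of the 66 members (19.7%), 9 below and 4 above, whereas 32.5% of all tested genes had groups without overlap. Unadjusted p-values below 0.05 were found for 9 members (13.6%), 8 lower and 1 higher, against 28.4% of all tested genes. Genes with a bacterial counterpart had a median log2 fold change of -0.06 over 40 tested, and those specific to mitochondria -0.10 over 26, with 1 called lower in each, since the nomenclature of the ribosome lists the large subunit protein of Mrps18a as specific to mitochondria.

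**Figure D4:**
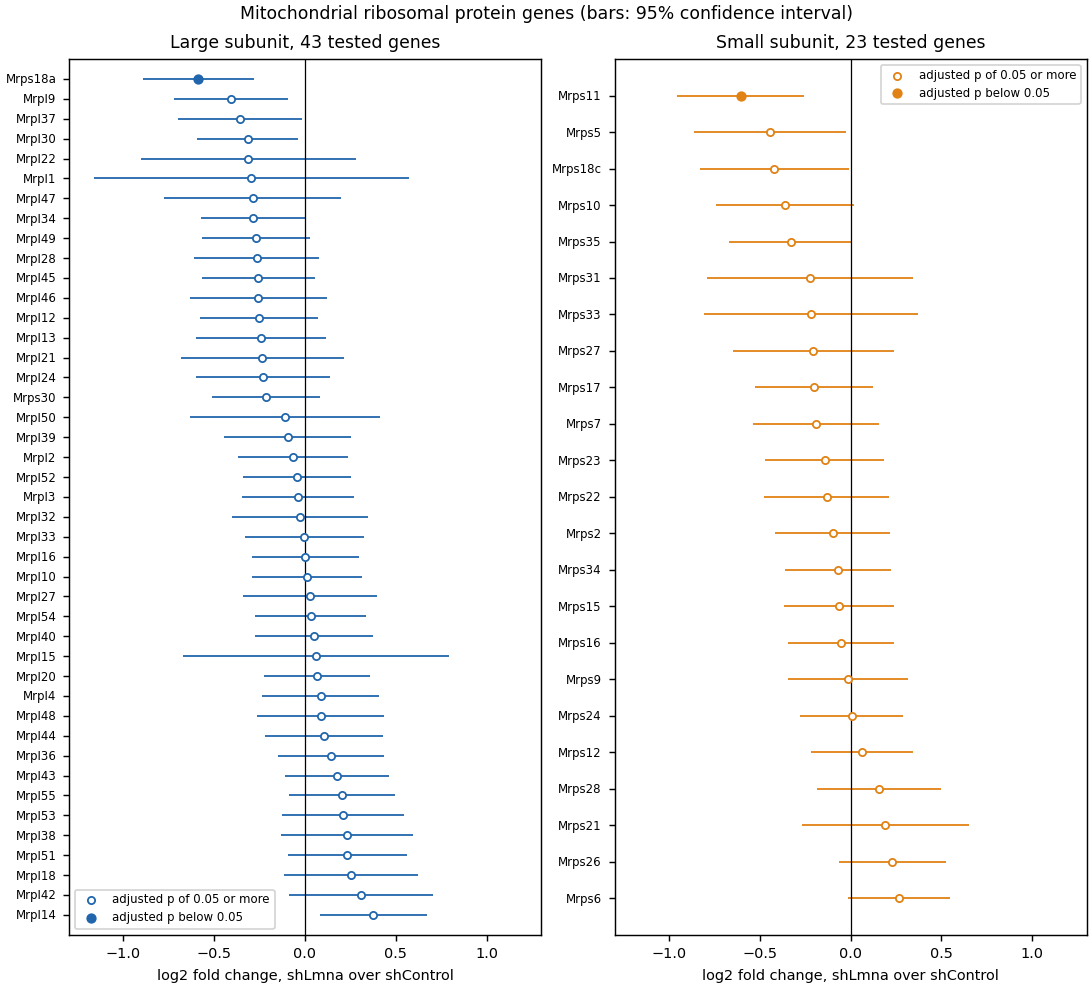
Log2 fold change, shLmna over shControl, with its 95% confidence interval for each tested member, 43 of the large subunit (left, blue) and 23 of the small subunit (right, orange), in order of size. Filled points passed an adjusted p below 0.05, which was the case for Mrps18a and Mrps11.

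The genes were also grouped by their place in the ribosome. In the central protuberance, the crown of the large subunit that contacts the small one, 0 of 8 genes were called, with a median of 0.07 and a range of -0.26 for Mrpl46 to 0.25 for Mrpl18. Of the genes around the decoding centre and the mRNA channel, 1 of 9 was called, Mrps11, at a median of -0.10. Of those at the polypeptide exit and the membrane, where new proteins are handed to the inner membrane, 0 of 7 tested were called, with a median of -0.23 and 6 of 7 below 0. Of those of the stalk and the L1 arm, which receive factors and release tRNA, 0 of 5 tested were called, at a median of 0.01. At an unadjusted p below 0.05, 0 genes of the central protuberance, the exit and the stalk passed. Around the decoding centre and the mRNA channel 2 of 9 passed, both lower. The other tools called no further member. Over all tested genes, 13.7% were called, 28.4% had an unadjusted p below 0.05 and 49.6% lay below 0. Sites of 5 to 9 genes are too small to be told apart from these shares.

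Summed over genes, the output of the ribosome's protein set differed little between groups. The large subunit genes summed to 7627, 7592 and 7792 CPM in shControl and 7315, 7169 and 7738 CPM in shLmna. The groups overlapped through shLmna replicate 3, and the means of 7670 ± 107 and 7407 ± 296 CPM (SD, n = 3) were 3.43% apart. The small subunit genes summed to 3661, 3768 and 3852 CPM in shControl and 3564, 3567 and 3660 CPM in shLmna. Here the groups touched without overlapping, and the means of 3760 ± 96.0 and 3597 ± 54.5 CPM were 4.35% apart.

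These differences depend on the scaling of the libraries. The log2 ratios were -0.05 for the large and -0.06 for the small subunit, and when libraries were scaled by their totals alone they were 0.002 and -0.01, with the median of all genes shifted to 0.06. With both melanocytic marker libraries left out they were -0.02 and -0.04. The ratio of large to small subunit transcripts was 2.04 ± 0.04 in shControl and 2.06 ± 0.05 in shLmna (SD, n = 3), a difference within the spread of the replicates.

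**Figure D5:**
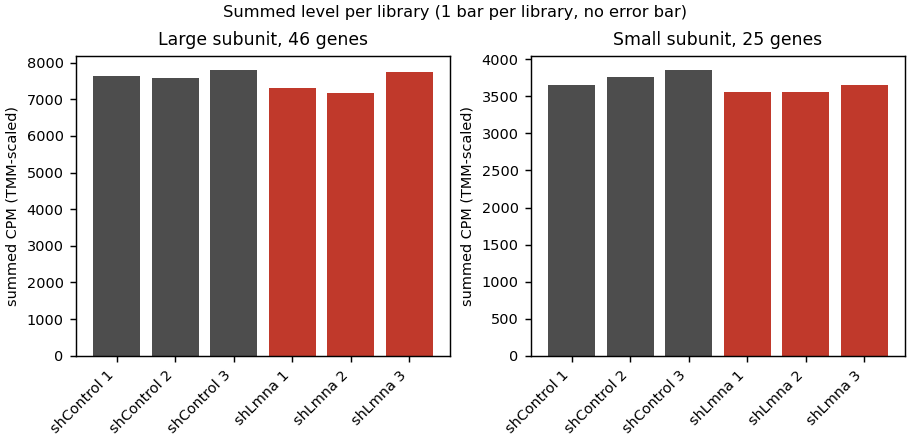
Summed TMM-scaled CPM of the 46 large subunit genes (left) and the 25 small subunit genes (right) in each library, with shControl in grey and shLmna in red and 1 bar per library. The bars of both groups are nearly level, between 7169 and 7792 CPM on the left and between 3564 and 3852 CPM on the right.

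GC content moved with the comparison in the data as a whole. Over the last 1000 bases of the transcript it had a median of 44.3% in the genes called higher, 49.6% in the genes called lower and 47.1% in all tested genes, and the members had a median of 49.6%. Its Pearson correlation with the log2 fold change was -0.19 over 8933 tested genes but 0.21 over the 66 tested members. After a correction for GC content, 5 members were called lower and 0 higher, where 16.8% of all tested genes were called. They were Mrps18a and Mrps11 again, with Mrpl9, Mrps17 and Mrps30 in addition. For these 3 added genes the RefSeq and GENCODE ends lie 2422, 3844 and 1729 bases apart, so that the GC content used may not be that of the counted stretch. Mrps17 and Mrps30 are among the poorest members in GC, at 37.3% and 35.9%, and their log2 fold changes went from -0.20 to -0.48 (adjusted p = 0.0269) and from -0.21 to -0.61 (adjusted p = 0.0185). The median of the members after the correction was -0.10, beside -0.03 for all tested genes. The part of GC content in the uncorrected result was not tested otherwise.

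The ribosome works with factors that charge its tRNAs, drive its cycle and assemble its subunits. Of 63 such genes in the table, a list of tRNA synthetases, translation factors, assembly factors, rRNA enzymes and subunits with other names, 61 were tested, 2 were lower and 0 higher at an adjusted p below 0.05 (3.28%, against 13.7% of all tested genes). DESeq2 called 1 lower and limma-voom 2, and both called 0 higher. At an unadjusted p below 0.05, 9 were lower and 2 higher, where 28.4% of all tested genes passed. The median log2 fold change of the list was -0.10.

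Tufm, the mitochondrial elongation factor that carries charged tRNA to the ribosome, had 167, 156 and 168 CPM in shControl and 116, 109 and 87.2 CPM in shLmna. The groups did not overlap, and the log2 fold change was -0.64 (SE 0.15, adjusted p = 0.0104, edgeR), which became 0.0559 without shLmna replicate 3. Mief1, a gene of the outer membrane that acts in mitochondrial fission and also encodes a microprotein of large subunit assembly, had 51.0, 48.5 and 38.7 CPM in shControl and 29.2, 26.4 and 32.4 CPM in shLmna. Its log2 fold change was -0.66 (SE 0.19, adjusted p = 0.0281, edgeR), and its adjusted p was 0.0605 by DESeq2 and between 0.0613 and 0.125 with any library but shControl replicate 3 left out. Of the 12 translation factors, 1 was called, and their median was -0.33, with 7 below 0. At an unadjusted p below 0.05, 3 of them passed, all lower. Of 26 tested assembly factors and rRNA enzymes, 1 was called, and their median was -0.17, with 17 below 0. At an unadjusted p below 0.05, 5 of these were lower and 1 higher. Of all tested genes, 13.7% were called, 28.4% had an unadjusted p below 0.05 and 49.6% lay below 0. Of the 18 tRNA synthetases 0 were called, and 1 was lower and 1 higher at an unadjusted p below 0.05. The 5 subunits with other names held no call either and none at an unadjusted p below 0.05, among them Ict1, a release factor built into the large subunit and also named Mrpl58, with 127 ± 11.1 CPM in shControl and 152 ± 12.9 CPM in shLmna (SD, n = 3, adjusted p = 0.259, edgeR).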

How the data were processed

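MARS-seq libraries of E0771 cells, 3 shControl and 3 shLmna, were compared. The authors trimmed reads with Cutadapt, mapped them to mm10 with STAR 2.4.2a and counted UMIs with a modified HTSeq-count in a window from 1000 bases before to 100 bases after each RefSeq gene's 3′ end. The deposited counts are raw and cover 10520 genes. A deposited table of log2 values corrected with ComBat and the authors' DESeq2 comparison (mean normalized count, fold change and p-values) were not used. Groups and replicate numbers came from the sample labels.

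The statistics used edgeR 4.0.16 under R 4.3.3. Its filterByExpr (minimum count 10) kept 8969 genes, libraries were scaled by TMM factors, and groups were compared with the quasi-likelihood test and Benjamini-Hochberg adjustment over all tested genes, without a replicate block. CPM are counts relative to TMM-scaled library sizes. Exact permutation of 3 against 3 libraries reaches no p under 0.1 and was not applied to genes. Intervals are 95% intervals of the model. Replicates differed by more than sampling noise (chi-square per degree of freedom 4.80 to 7.70). Precision therefore depends on this spread between libraries as well as on the totals of 1846208 to 3242051 UMIs.

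Alternatives were DESeq2 1.42.0, limma-voom (limma 3.58.1), RLE, upper-quartile or total scaling, no filter, a mean count of at least 50, a replicate block, each library left out, a loess correction for GC content (span 0.3, degree 2) with and without the block, and members whose counted ends are free of other exons. The settings with the melanocytic marker libraries left out or as a block were chosen after seeing the data. Annotation was GENCODE release M21 (GRCm38), with RefSeq promoters of GRCm38.p6. The fits were tested on simulated counts. Plots used Python 3.11.15, pandas 2.3.3, numpy 2.4.6, scipy 1.17.1 and matplotlib 3.10.9.

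The members and gene lists were chosen with earlier results of these data known. Genes are named by a rule: Lmna, members and pathway genes called at an adjusted p below 0.05, the 3 most positive and 3 most negative members, the 5 highest and 3 lowest tested members, Mrps18a to c, Mrps30, Mrpl12, Ict1, Mrps36 and members below the filter. Members outside it are named as examples after their values were seen.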

Additional observations from a re-analysis of the deposited data

How the results depend on the processing

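The 2 members called lower, Mrps18a and Mrps11, were the same under DESeq2, limma-voom, RLE, upper-quartile and total scaling, no filter, a mean count of at least 50 and the replicate block. The replicate block gave 2 lower and 0 higher. Leaving out 1 library gave 0 to 3 lower and 0 higher: 0 lower without shControl replicate 2, shLmna replicate 2 or shLmna replicate 3, 1 without shControl replicate 1 and 3 without shControl replicate 3, while 5.89% to 17.2% of all tested genes were called. The GC correction gave 5 lower and, with the replicate block, 6, the sixth being Mrps35, where 16.8% and 15.6% of all tested genes were called. The 4 libraries low in melanocytic markers gave 1 lower, where 13.2% of all tested genes were called. With the melanocytic marker libraries as a block there were 3 lower (Mrpl9 in addition) and 1 higher (Mrpl14). In that setting 20.8% of all tested genes were called. Total scaling also gave 1 higher, where 13.5% of all tested genes were called. Among members with counted ends free of other exons, 1 was lower. The log2 ratio of the summed large subunit was 0.00221 and of the small subunit -0.0117 under total scaling. The median of the members stayed below 0, between -0.120 and -0.0174, under every setting.

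Of the 61 tested pathway genes, DESeq2 called 1 lower, the melanocytic block 6 lower and 1 higher, and the 4 libraries 3 lower and 1 higher. Leaving out 1 library called 0 to 4 lower and 0 to 2 higher. Of all tested genes, 9.53% were called by DESeq2, 20.8% with the melanocytic block and 13.2% in the 4 libraries. With 1 library left out, 5.89% to 17.2% of all tested genes were called. Of 357 comparisons for 20 named genes, 337 stayed on their side of the threshold, 15 lost a call, 5 gained one and 0 called values changed sign. Most of the 20 genes were not called in the main fit, so the 337 consist largely of genes that stayed uncalled. Only Lmna, Mrps11, Mrps18a, Tufm and Mief1 had a call to lose. Among the 337, 9 uncalled values near 0 changed sign, those of Mrps24, Mrpl20, Mrpl52 and Mrpl15. Same-numbered libraries deviated from their group means with correlations of 0.35, -0.11 and 0.0052 for replicates 1, 2 and 3. Replicates 2 and 3 each hold a library with melanocytic markers in 1 group only. Whether the numbers pair the libraries therefore cannot be told from these values. With the replicate block 15.1% of all tested genes were called, against 13.7% without it. The cause of the changes between settings was not tested.

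The smallest standard error of a member was 0.13 on the log2 scale, and the 6 members below the filter had 2 to 15 UMIs per library, which limits what could be detected in them.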

Other observations

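Another gene started on the opposite strand within 1000 bases of 24 members, and 22 of these neighbours were not themselves members. Of the 16 tested, 1 was lower and 0 higher at an adjusted p below 0.05 (edgeR), where 13.7% of all tested genes were called, and 5 had an unadjusted p below 0.05, where 28.4% of all tested genes did. The lower one was Ppp1r10, a regulatory subunit of protein phosphatase 1 that lies beside Mrps18b, with 55.6 ± 13.2 CPM in shControl and 30.5 ± 3.18 CPM in shLmna (SD, n = 3, log2 fold change -0.89, SE 0.20, adjusted p = 0.0094). Mrps18b had too few UMIs to be tested. Fau, a gene for a cytosolic ribosomal protein that starts 191 bases from Mrpl49, had a log2 fold change of -0.43 (SE 0.15, adjusted p = 0.0673, edgeR), beside -0.27 (SE 0.14, adjusted p = 0.221) for Mrpl49.

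Of the 6 members below the filter, Mrpl19 had 9, 12 and 8 UMIs in shControl and 4, 5 and 5 in shLmna, and Mrps36 had 7, 6 and 4 in shControl and 8, 13 and 8 in shLmna. Fitted without the filter, their log2 fold changes were -0.96 (SE 0.49, adjusted p = 0.228) and 0.82 (SE 0.47, adjusted p = 0.298) by edgeR.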
